A study of Danio rerio with 53 samples.

Results

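The genes rag1 (ENSDARG00000052122), rag2 (ENSDARG00000052121) and dntt (ENSDARG00000104792) were followed through sorted zebrafish lymphocytes, as the rows of the deposited count table whose Ensembl identifier carries one of those symbols. They are 3 of the 14423 genes in the table, and all 3 entered the tests. Rag1 and Rag2 together form the recombinase that cuts antigen receptor genes at their recombination signals, and terminal deoxynucleotidyl transferase, the product of dntt, adds bases at the cut ends before end joining proteins seal them. Lymphocyte precursors of the T lineage use this machinery in the thymus, and those of the B lineage use it in the kidney marrow of fish. In mouse, where this is best known, the genes are switched on in waves in precursors and switched off once a receptor is complete.

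The study sorted fluorescent lymphocytes from the thymus (29 libraries) and the marrow (24 libraries) of fish with a pair of reporters, and its title concerns involution of the thymus. Line and population together define 19 groups among the 53 libraries. The labels name no treatment, age or mutation, and do not say whether libraries of a group came from separate animals or from pools, so p-values measure the spread between these samples, which may be technical. RNA was read at the 3-prime end of transcripts (QuantSeq), so levels need no correction for gene length, and are given as CPM, the usual scaling of counts by library total.

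A red reporter driven by the rag2 promoter (RFP) or by the lck promoter (mCherry) was combined with a green reporter (GFP) under the promoter of cd79a or cd79b. The gene lck encodes a kinase of T cells, and cd79a and cd79b encode the signalling chains of the B cell receptor. The rag2-cd79a line gave thymic populations T2 and T3, both named T Stage I, T1 (T Stage II) and T4 (thymic B), and marrow populations M1 (early B-committed, 1 library), M3A (B Stage I) and M3B (B Stage II). The rag2-cd79b line gave T1, T4, M1 (2 libraries), M3A and M3B under the same names, and M4 (B Stage III). The lck-cd79a line gave T1 (T Stage III), T2 (T Stage IV), T4 (thymic B) and M1 (early T-committed), and the lck-cd79b line gave T4 (2 libraries) and M1. The other groups held 3 libraries each. T Stage III is spelled T State III in the labels. Populations were sorted by fluorescence from lymphoid and precursor gates, and the brightness that defines each is not given in the labels. In the rag2 lines the cells were sorted with a reporter that the rag2 promoter drives, so the level of rag2 there is not independent of the sort.

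Total counts ran from 7295854 to 18778603 per library, so that 3 counts, the limit that a count of 0 allows, stand for 0.160 to 0.411 CPM. This limit covers counting error only, because reads without molecular identifiers are not independent molecules. Genes seen in a library ranged from 3804 to 11360, and 45.1% of all entries of the table were 0. Summed over the 12 T lineage genes measured, T Stage I to IV libraries held 2878 to 6678 CPM and B Stage I to III libraries 0 to 50.6 CPM. Thymic B libraries held 41.05 to 337.9 CPM of these genes. Over the 9 B lineage genes measured, B Stage I to III libraries held 1727 to 3321 CPM and thymic B libraries 1212 to 3725 CPM, against at most 44.9 CPM in T Stage I to IV. Early T-committed libraries held 465.6 to 2329 CPM of the T genes and 167 to 590 CPM of the B genes, and early B-committed libraries held 121 to 232 CPM and 819 to 1027 CPM. In bulk samples, fewer cells of a type and less RNA per cell cannot be told apart.

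The gene rag1, the catalytic subunit of the recombinase, was at its highest in thymic T cells and in early B-committed marrow cells. In T Stage I the lowest, median and highest rag1 levels were 749, 952 and 1906 CPM over 6 libraries, and in T Stage II they were 859, 912 and 1196 CPM over 6 libraries. The 3 early B-committed libraries held 641 and 355 CPM of rag1 in the rag2-cd79b line and 1520 CPM in the rag2-cd79a line. T Stage IV libraries held 665, 899 and 733 CPM, and T Stage III libraries 564, 668 and 271 CPM. Each of the 18 thymic T libraries was therefore above 270 CPM of rag1, and the neighbours in the order of means among these 5 populations overlapped.

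The other populations held less rag1. Thymic B libraries ran from 0 through a median of 43.7 to 124 CPM of rag1, with 10 of 11 above 3 counts. B Stage I libraries ran from 17.2 through 37.8 to 70.0 CPM, inside the range of thymic B cells. The lowest T library, at 271 CPM, and the highest thymic B library, at 124 CPM, did not overlap. Early T-committed libraries held more than 3 counts of rag1 in 3 of 6: replicate 55 of the lck-cd79a line held 47.2 CPM, replicate 23 of the lck-cd79b line 40.9 CPM and replicate 56 of the lck-cd79a line 1.08 CPM. B Stage II libraries ran from 1.02 to 7.13 CPM, and all 3 B Stage III libraries held 0 counts, a limit of 0.293 CPM for the one with the fewest reads. B Stage II and B Stage III thus did not overlap, the other gap in the order besides that between T Stage III and thymic B.

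The gene rag2, the regulatory subunit, was spread differently over the same populations. Early B-committed libraries held 176 and 37.2 CPM of rag2 in the rag2-cd79b line and 473 CPM in the rag2-cd79a line. T Stage II libraries ran from 141 through 217 to 289 CPM, T Stage I libraries from 126 through 204 to 368 CPM and B Stage I libraries from 74.8 through 173 to 239 CPM. For rag2, unlike rag1, the B Stage I libraries thus overlapped with those of T Stage I and T Stage II. T Stage IV libraries held 64.3, 87.4 and 123 CPM, and T Stage III libraries 105, 60.4 and 78.0 CPM.

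The lower levels of rag2 were reached in thymic B, B Stage II, B Stage III and early T-committed cells. Thymic B libraries ran from 0 through a median of 12.0 to 155 CPM of rag2, with 9 of 11 above 3 counts. B Stage II libraries ran from 4.03 through 8.46 to 33.6 CPM. In B Stage III, replicate 18 held 21.3 CPM and the other libraries 0, and in early T-committed cells replicate 55 of the lck-cd79a line held 15.9 CPM and the other 5 libraries 0. Every neighbour in the order of rag2 levels overlapped with the next, so the order of the means is not an order of separate populations.

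The gene dntt was seen in few libraries. Counts above 3 were found in 2 of 3 early B-committed libraries, 2 of 6 in T Stage I, 4 of 6 in T Stage II and 1 of 3 in T Stage III. The highest levels were 21.6 CPM in T Stage I replicate 28, 19.7 CPM in early B-committed replicate 7, 10.5 CPM in T Stage II replicate 3 of the rag2-cd79b line, 6.57 CPM in T Stage III replicate 45 and 6.00 CPM in early B-committed replicate 36. No dntt count was seen in the 3 T Stage IV, 11 thymic B and 6 early T-committed libraries, nor in the 15 libraries of the marrow B stages, a limit of 0.411 CPM for the one with the fewest reads. The other early B-committed library, replicate 8, held 1 dntt count, so libraries of 1 population ranged from at or near 0 to these levels.

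**Figure D1:**
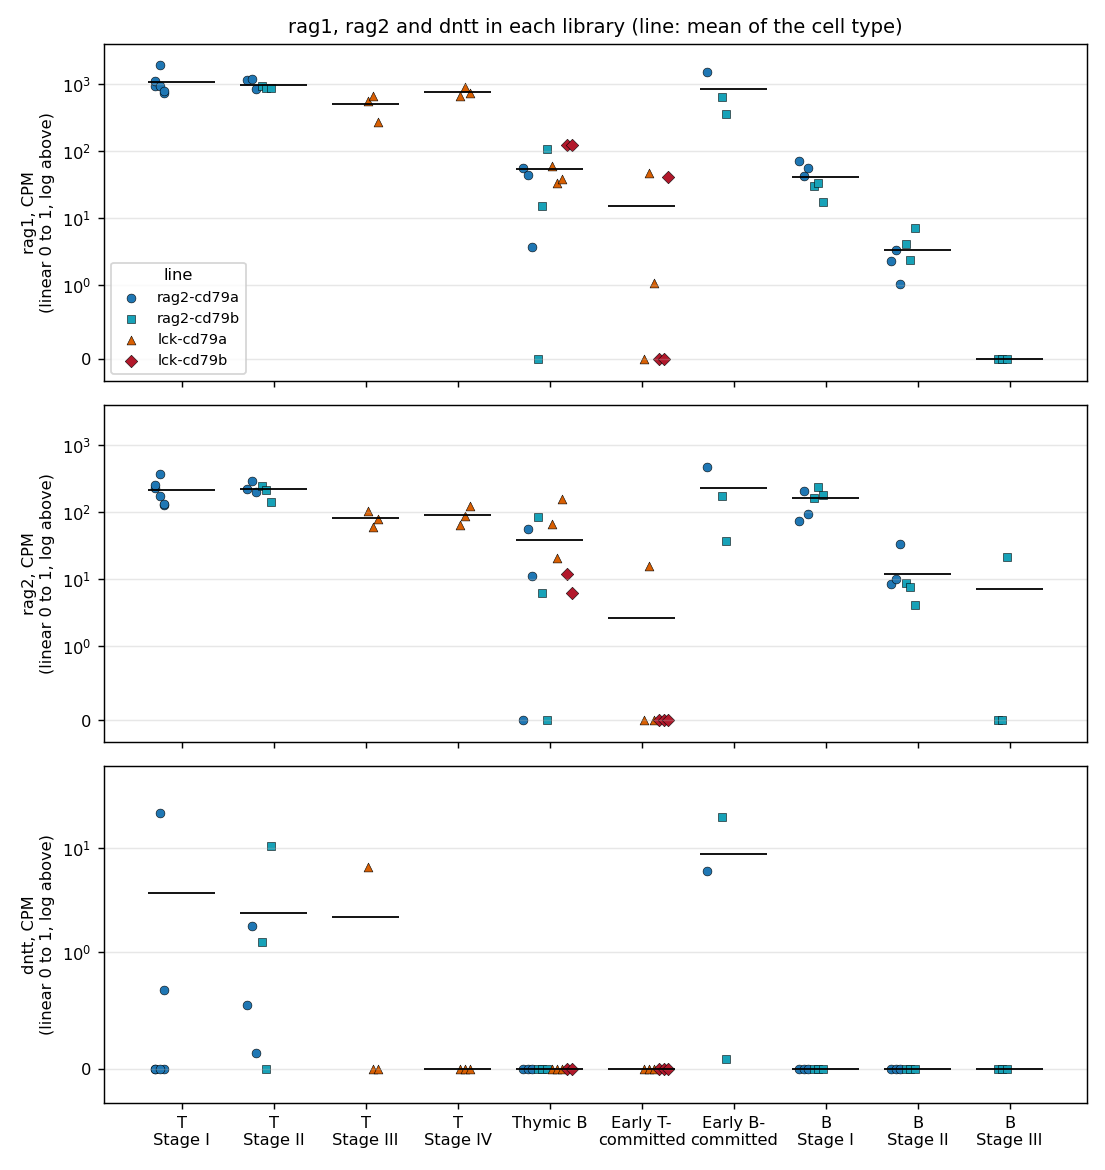
CPM of rag1, rag2 and dntt in each of the 53 libraries by cell type (axis linear from 0 to 1 and logarithmic above), with colours and symbols for the 4 lines and a black line at the mean of each cell type. The thymic T libraries of rag1 all lie above 270 CPM, B Stage I lies near those of T cells for rag2 but not for rag1, and dntt is at 0 in most libraries.

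The balance between the partners of the recombinase was compared within libraries, as the share of rag1 in the sum of rag1 and rag2 counts, which does not depend on the total. In T Stage I this share was 80.4% to 85.7%, in T Stage II 79.4% to 86.0%, in T Stage III 77.6% to 91.7% and in T Stage IV 85.6% to 91.2%. Early B-committed cells fell in the same band, at 76.2% to 90.5%. In B Stage I the share was 8.67% to 48.3% and in B Stage II 2.96% to 63.9%, with no overlap with the T stages or with early B-committed cells. Expressed as log2 of rag2 over rag1 counts (0.5 added to each), the ratio was −2.19 ± 0.27 in T Stage II and 1.97 ± 1.28 in B Stage I (SD, n = 6 each). The difference of −4.16 on the log2 scale was tested by permuting libraries within each rag2 line, and the two-sided exact permutation p of 0.005 is the smallest that 400 arrangements can give (0.0075 after adjustment over the 3 ratios). In these lines the rag2 level is not independent of the sort. The ratios to dntt were computed too, but dntt has no count in B Stage I, so they rest on the added 0.5: log2 dntt over rag1 differed by −0.46 (exact permutation p = 0.745) and log2 dntt over rag2 by 3.70 (exact permutation p = 0.005, adjusted 0.0075). T Stage II replicate 2 of the rag2-cd79b line had no dntt count either. It held 2181 rag2 counts, against 2327 to 2865 in B Stage I of that line, so its dntt over rag2 ratio differs through rag2 alone. The dntt over rag2 call was lost without B Stage I replicate 10, 11 or 12 of the rag2-cd79b line, at 3.71, 3.66 and 3.74 (adjusted exact permutation p = 0.0525 each).

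In thymic B cells the share of rag1 ran from 0% to 100% over the 11 libraries, with a median of 61.7%. Replicate 4 of the rag2-cd79b line held 0 rag1 and 656 rag2 counts, replicate 6 of that line 915 rag1 and 0 rag2 counts, and replicate 33 of the rag2-cd79a line 508 and 0 counts. These 3 libraries had 3804, 5942 and 5885 genes detected, against a median of 6681 over the 11 thymic B libraries and 8773 in T Stage II. Replicate 5 of the rag2-cd79b line, with 5157 genes detected, held both genes, at 122 rag1 and 50 rag2 counts. Both libraries of the lck-cd79b line held mainly rag1, with 1082 rag1 and 105 rag2 counts in replicate 19 and 1088 and 55 counts in replicate 20. The part of low detection in this spread was not tested.

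**Figure D2:**
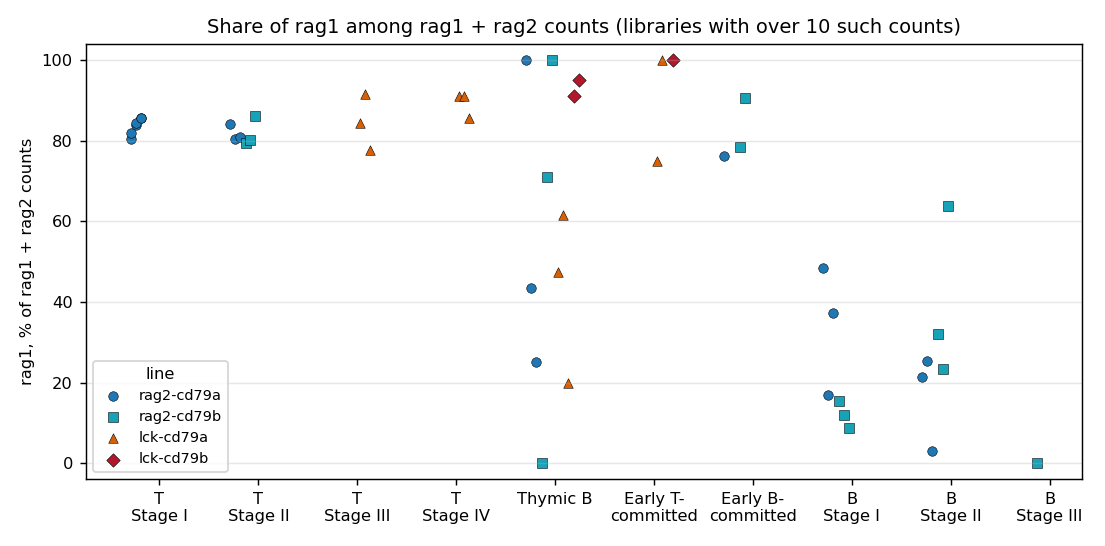
Rag1 counts as a percentage of rag1 plus rag2 counts in each library with more than 10 such counts, by cell type and line. T stages and early B-committed cells lie between 76.2% and 91.7%, B Stage I at 8.67% to 48.3%, and thymic B libraries from 0% to 100%.

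The first comparison asked how the thymic T stages differ. In the rag2-cd79a line, T Stage II did not differ detectably from T Stage I for rag1, which had a log2 fold change of 0.05 (SE 0.61, edgeR adjusted p = 1.0) and a 95% interval of −1.14 to 1.24. For rag2 the log2 fold change was 0.23 (SE 0.63, edgeR adjusted p = 1.0). Over all genes 0% were called in this comparison, with 707 genes at an unadjusted p under 0.05 and 880 called by DESeq2. The T2 and T3 populations, both T Stage I, held 1202 ± 618 and 963 ± 165 CPM of rag1 and overlapped.

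T Stage III, from the lck-cd79a line, was compared with T Stage II of the rag2-cd79a line after subtracting what thymic B cells of these lines differed by. The rag1 libraries of the stages did not overlap, at 501 ± 206 CPM against 1072 ± 185 CPM (SD, n = 3 each), nor did those of rag2, at 81.2 ± 22.5 against 237 ± 45.6 CPM. With the line difference subtracted, the log2 fold changes were −1.49 for rag1 (SE 1.07, edgeR adjusted p = 0.909) and −3.26 for rag2 (SE 1.14, edgeR adjusted p = 0.381). Neither was called, where 0.0139% of all genes were. The rag2 value includes the thymic B difference, 80.8 ± 68.2 CPM in the lck-cd79a line against 22.5 ± 30.0 CPM in the rag2-cd79a line. Leaving out 1 library moved it between −5.30 and −2.45. Stage and line cannot be told apart in the levels themselves. T Stage IV and T Stage III of the lck-cd79a line overlapped in both genes, with log2 fold changes of 0.58 for rag1 (SE 0.71) and 0.20 for rag2 (SE 0.76, edgeR adjusted p = 1.0 for both), and 0.0763% of all genes called.

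The marrow B stages gave 1 step in which rag1 moved without a call for rag2. From early B-committed to B Stage I cells, rag1 fell from 838 ± 607 CPM (SD, n = 3) to 41.6 ± 19.1 CPM (SD, n = 6), with no overlap of libraries, a log2 fold change of −4.43 (SE 0.64) and an edgeR adjusted p of 1.14e-05, in a comparison where 1.05% of all genes were called (0.582% higher and 0.471% lower) and the median log2 fold change of all genes was 1.07. The rag2 gene had a log2 fold change of −0.46 (SE 0.65, edgeR adjusted p = 1.0) and a 95% interval of −1.74 to 0.82. For dntt, the early B-committed mean of 8.61 CPM was 38.3-fold above the 3-count limit of B Stage I, where no library had a count. Early B-committed replicate 8 held 1 dntt count, and edgeR gave an adjusted p of 0.452. With the trended dispersion of the earlier edgeR method, the adjusted p of rag1 in this step was 0.306. Early B-committed libraries also carried RNA of other marrow cells: the 4 red cell genes measured summed to 1918 to 9591 CPM, the 4 myeloid genes to 192 to 1425 CPM and the 7 kidney tubule genes to 0.617 to 220 CPM, against 334 to 3064, 49.0 to 543 and 188 to 1492 CPM in B Stage I. Their part in the result was not tested.

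Both genes fell from B Stage I to B Stage II. The rag1 level went from 41.6 ± 19.1 to 3.36 ± 2.12 CPM and the rag2 level from 161 ± 64.3 to 12.0 ± 10.8 CPM (SD, n = 6 each), without overlap of libraries in either gene. The log2 fold changes were −3.44 for rag1 (SE 0.78, edgeR adjusted p = 0.0100) and −3.80 for rag2 (SE 0.65, edgeR adjusted p = 2.61e-05), so that 2 of 3 genes were called where 1.12% of all genes were (0.153% higher and 0.964% lower). Both populations were sorted in the rag2 lines, so the rag2 call is not independent of the sort. The direction held in both lines: the difference between the lines was 2.13 for rag1 (SE 1.73) and −1.88 for rag2 (SE 1.31), both at an edgeR adjusted p of 1.0. The call of rag1 was lost without B Stage II replicate 44 of the rag2-cd79a line or replicate 13 or 14 of the rag2-cd79b line, at edgeR adjusted p values of 0.0546, 0.0527 and 0.0576, and with the trended dispersion both genes had an adjusted p of 0.342. Of the 15 genes of cell division measured (DNA replication and mitosis), 9 were also lower in B Stage II and 0 higher, with a median log2 fold change of −2.71 against −0.10 over all genes. Of the 7 kidney tubule genes, 4 were lower (median −3.85), with sums of 188 to 1492 CPM in B Stage I and 59.0 to 147 CPM in B Stage II, and their part in the result was not tested.

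In the rag2-cd79b line, rag1 averaged 4.50 ± 2.44 CPM (SD, n = 3) in B Stage II, 17.4-fold above the 3-count limit of B Stage III. No B Stage III library had a rag1 count. The step was not called by edgeR (adjusted p = 0.598) but was by DESeq2 (adjusted p = 9.70e-31). The DESeq2 value was fitted against a group at 0 and is no bound. For rag2 the log2 fold change was −0.07 (SE 1.24, edgeR adjusted p = 1.0), the B Stage III mean resting on replicate 18. Over all genes 0.0277% were called by edgeR (4 genes), while DESeq2 called 1476 genes. B Stage III libraries held 304 to 2678 CPM of the kidney tubule genes, against 59.0 to 147 CPM in B Stage II.

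**Figure D3:**
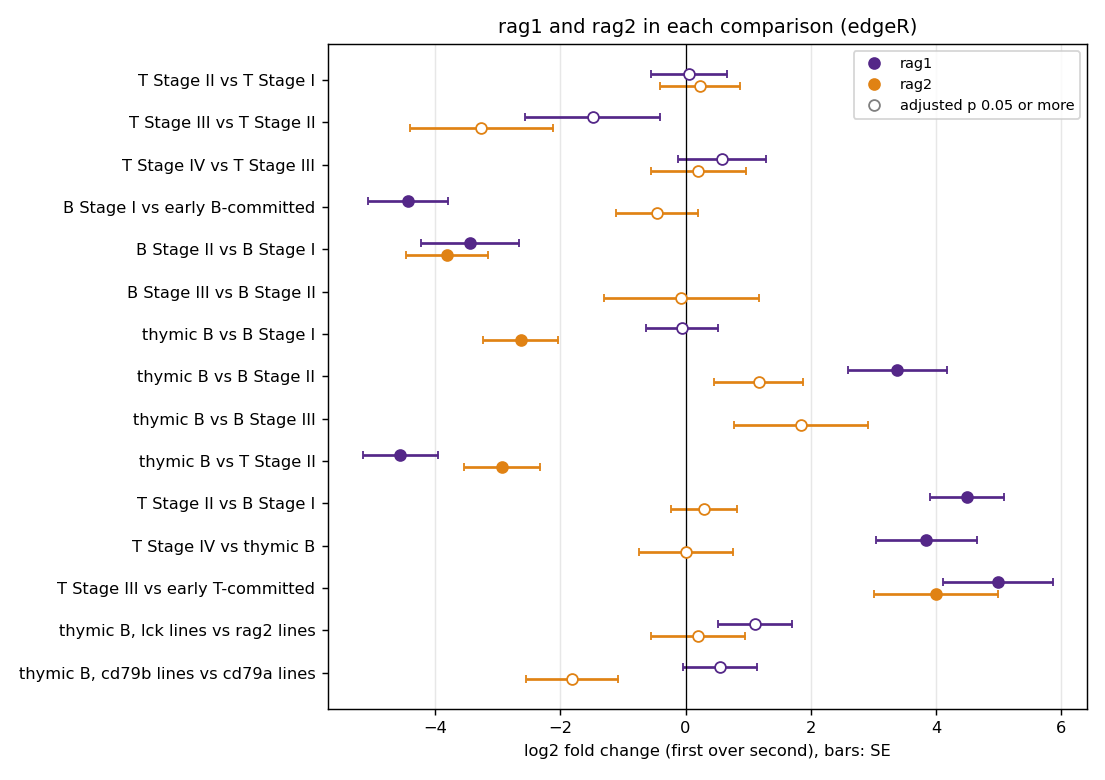
Log2 fold changes of rag1 and rag2 with their SE in 15 comparisons (edgeR), filled where the adjusted p is under 0.05; values against a group with no count are left out. From early B-committed to B Stage I only rag1 was called, with rag1 at −4.43 and rag2 at −0.46, and from B Stage I to B Stage II both genes were.

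The question of how thymic T cells and marrow B cells differ in the machinery was addressed with T Stage II against B Stage I, both taken from the 2 rag2 lines. The rag1 level was 984 ± 155 CPM in T Stage II and 41.6 ± 19.1 CPM in B Stage I (SD, n = 6 each), with no overlap and a log2 fold change of 4.50 (SE 0.59, edgeR adjusted p = 9.90e-08). The rag2 level was 219 ± 49.4 against 161 ± 64.3 CPM, with overlapping libraries, a log2 fold change of 0.30 (SE 0.52, edgeR adjusted p = 1.0) and a 95% interval of −0.73 to 1.32. The difference between the lines was not called for rag1 (0.76, SE 1.07) or rag2 (−0.92, SE 1.05). For dntt, the T Stage II mean of 2.36 CPM was 10.5-fold above the 3-count limit of B Stage I, without a call by edgeR (adjusted p = 0.685). The dntt libraries overlapped, and the T Stage II median was 0.897 CPM, with 10.47 CPM in replicate 3 of the rag2-cd79b line. In this comparison 5.84% of all genes were called (2.43% higher and 3.4% lower), and 1 of the 3 members.

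Of the other genes that act with the recombinase, the end joining factors and their neighbours formed a list of 21 symbols, of which 19 had a row. Between T Stage II and B Stage I, 2 of 19 were higher and 0 lower, where 2.43% of all genes were higher and 3.4% lower. The median log2 fold change was 0.14 against −0.08 over all genes. The gene dclre1c, which encodes the nuclease Artemis that opens the hairpin ends made by the recombinase, was at 457 ± 220 CPM in T Stage II and 8.93 ± 9.89 CPM in B Stage I, without overlap (log2 fold change 7.11, SE 0.82, edgeR adjusted p = 2.19e-12). The gene polm, which encodes a polymerase of end joining related to dntt, was at 96.8 ± 27.3 against 2.82 ± 5.42 CPM, also without overlap (log2 fold change 6.15, SE 1.08, edgeR adjusted p = 3.14e-06). The chromatin protein gene hmgb2b, whose mouse counterpart helps the recombinase bind its signals, was at 638 CPM in T Stage II and 893 CPM in B Stage I.

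The regulators known from mouse to act on the rag genes or in early lymphocytes formed a list of 23 symbols, of which 13 had a row. Those without a row were ebf1a, ebf1b, foxo1a, foxo1b, lef1, satb1a, satb1b, bcl11aa, bcl11ab and spi1b. In T Stage II against B Stage I, 7 of 13 were higher and 1 lower, where 2.43% of all genes were higher and 3.4% lower. The median log2 fold change was 2.33 against −0.08 over all genes. The list was not independent of lineage: bcl11ba, gata3, tcf7 and pax5 are also in the T or B lineage lists. The transcription factor gene bcl11ba, of the T lineage, was at 1533 ± 356 against 4.82 ± 8.58 CPM, and gata3, another T lineage factor, at 514 ± 246 against 0.743 ± 1.82 CPM. The gene pax5, which sets B lineage identity, was at 298 ± 38.4 CPM in B Stage I. That mean was 1126-fold above the 3-count limit of T Stage II, where pax5 had no count. The gene tcf7, another T lineage factor, was at 46.6 ± 53.8 CPM in T Stage II, with libraries from 14.3 to 156 CPM. Its mean was 207-fold above the 3-count limit of B Stage I, where no library had a count.

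**Figure D4:**
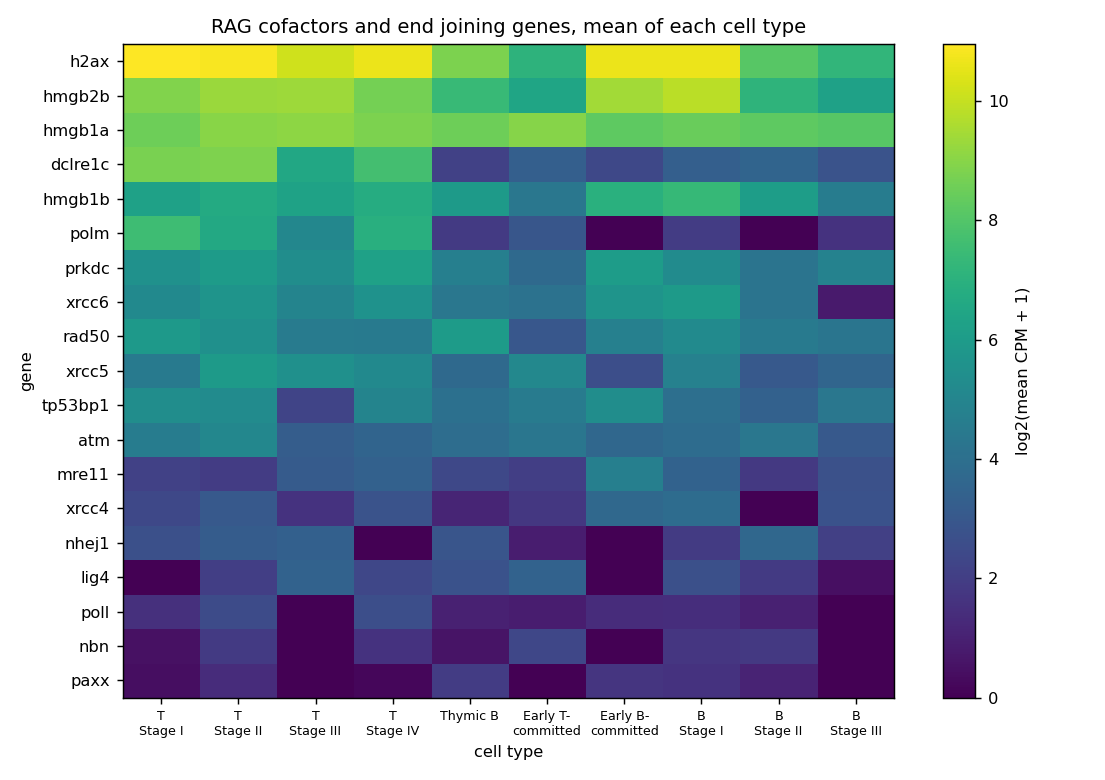
Mean level of the 19 measured genes of the end joining list in each cell type, as log2(mean CPM + 1), ordered by their mean. Means in the 4 T stages are 94.9 to 457 CPM for dclre1c and 32.3 to 185 CPM for polm. In thymic B, early B-committed and B Stage I to III cells they are at most 10.7 and 2.82 CPM. Within their own rows, h2ax and hmgb2b are higher in T stages, early B-committed and B Stage I cells than in the other populations.

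Thymic B cells, from all 4 lines, held rag1 in 10 of 11 libraries and rag2 in 9 of 11. Comparisons with T Stage II and with marrow B cells used only the 6 thymic B libraries of the rag2 lines. Against T Stage II, rag1 was lower in thymic B cells, at 37.3 against 984 CPM, with a log2 fold change of −4.56 (SE 0.60, edgeR adjusted p = 1.02e-07). The rag2 gene was also lower, at 26.4 against 219 CPM (log2 fold change −2.93, SE 0.60, edgeR adjusted p = 9.63e-05), so that 2 of 3 genes were called, where 9.98% of all genes were (3.66% higher and 6.32% lower). In the rag2 lines the libraries of neither gene overlapped, while replicate 53 of the lck-cd79a line, which was not in this comparison, held 155 CPM of rag2, above the lowest T Stage II library at 141 CPM. Without thymic B replicate 6 of the rag2-cd79b line the log2 fold change of rag1 became −5.79, and without replicate 4 of that line or replicate 34 of the rag2-cd79a line that of rag2 became −4.56 or −3.96. With trended dispersion the adjusted p of rag2 was 0.140. As both populations came from the rag2 lines, the rag2 call is not independent of the sort. The dntt mean in T Stage II, 2.36 CPM, was 6.96-fold above the 3-count limit of thymic B cells, where no library had a count. It was not called by edgeR (adjusted p = 0.610), the libraries overlapped and the T Stage II median was 0.897 CPM.

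The thymic B level of rag1 was 3.20% of the T Stage II level in the rag2-cd79a line and 4.49% in the rag2-cd79b line, and that of rag2 was 9.48% and 15.1%. Among the 12 T lineage genes measured, the same percentage ran from 0% to 16.6% with a median of 0.812% in the rag2-cd79a line, and from 0% to 15.9% with a median of 1.18% in the rag2-cd79b line. These means rest on few libraries: rag1 in the rag2-cd79b line was at 0, 15.2 and 105.5 CPM. By medians of libraries, rag1 was at 3.76% and 1.75% and rag2 at 4.98% and 2.92% in the rag2-cd79a and rag2-cd79b lines. By means, cd28 was highest in both lines, with il7r and tcf7 at 0 counts in both. Also above rag1 were cd8b (13.0%) and tox (5.91%) in the rag2-cd79a line, and tox (8.55%) and itk (8.24%) in the rag2-cd79b line. The other T lineage genes lay below rag1. By medians, cd28, cd8b and tox were at 36.1%, 15.0% and 6.59% in the rag2-cd79a line. In the rag2-cd79b line, cd28 and tox were at 10.55% and 9.91%. The other T lineage genes lay below rag2 by medians. The part of T cells in the thymic B sorts was not tested. The end joining genes dclre1c and polm, high in T Stage II, were at 3.90 CPM and at no count in the thymic B cells of these lines, and 0 of 6 such libraries had a polm count.

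**Figure D5:**
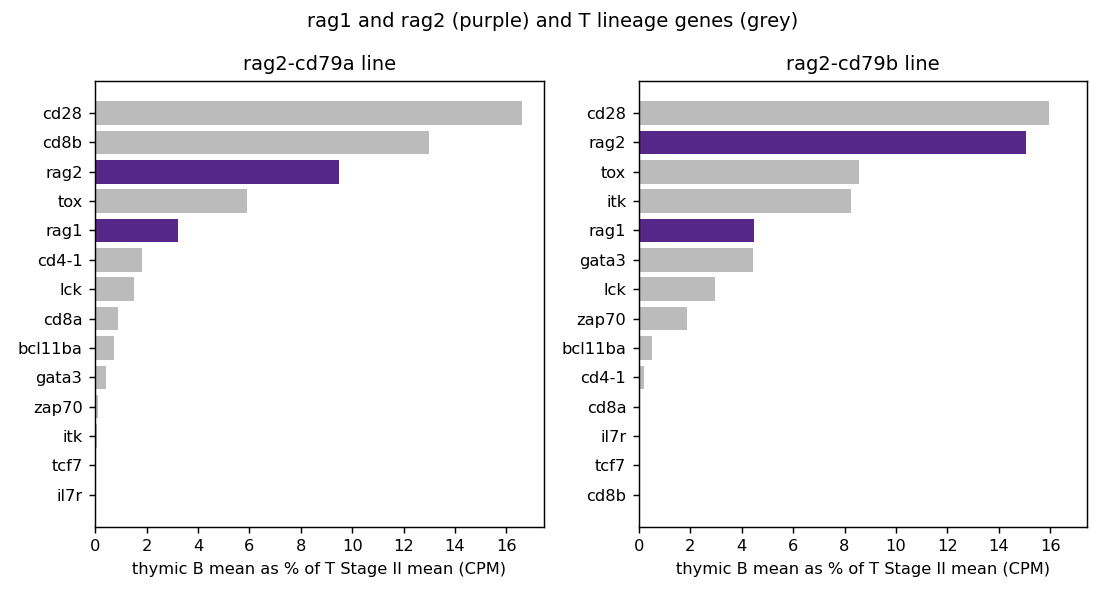
Mean level in thymic B cells as a percentage of the mean in T Stage II, for rag1 and rag2 (purple) and the 12 T lineage genes (grey), in the rag2-cd79a and rag2-cd79b lines. The members lie at 3.20% to 15.1%, with cd28 above them in both lines and il7r and tcf7 at 0%. Also above rag1 are cd8b and tox in the rag2-cd79a line, where cd8b is above rag2 too, and tox and itk in the rag2-cd79b line.

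Against marrow B Stage I, rag1 in thymic B cells did not differ detectably, with a log2 fold change of −0.06 (SE 0.58, edgeR adjusted p = 1.0) and a 95% interval of −1.19 to 1.08, while rag2 was lower, at 26.4 against 161 CPM (log2 fold change −2.63, SE 0.60, edgeR adjusted p = 0.00140). The rag2 libraries overlapped between the groups, and in these rag2 lines the rag2 call is not independent of the sort. In this comparison 6.03% of all genes were called (1.43% higher and 4.6% lower) and 1 of the 3 members. The adjusted p of rag2 was 0.0702 by DESeq2 and 0.190 with trended dispersion, and its log2 fold change was −4.25 without replicate 4 of the rag2-cd79b line and −3.66 without replicate 34 of the rag2-cd79a line. Of the 15 cell division genes, 12 were lower in thymic B cells and 0 higher (median log2 fold change −4.17 against −1.28 over all genes).

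Against B Stage II, rag1 was higher in thymic B cells, at 37.3 against 3.36 CPM (log2 fold change 3.38, SE 0.79, edgeR adjusted p = 0.0180), and rag2 was not called, at 26.4 against 12.0 CPM (log2 fold change 1.17, SE 0.71, edgeR adjusted p = 0.501), where 1.32% of all genes were (0.367% higher and 0.957% lower). The libraries of rag1 overlapped: thymic B replicate 4 of the rag2-cd79b line held no count and replicate 35 of the rag2-cd79a line 3.65 CPM, against 1.02 to 7.13 CPM in B Stage II. The rag1 call rested on few libraries: without thymic B replicate 6 of the rag2-cd79b line the log2 fold change was 2.15 (edgeR adjusted p = 0.202). The call was also lost without thymic B replicate 33 and without B Stage II replicates 42, 44, 13 or 14, with edgeR adjusted p values of 0.0532 to 0.0696. It was lost too with only the compared groups in the fit (adjusted p = 0.195) and with trended dispersion (adjusted p = 0.102). The difference between the lines was −0.99 for rag1 (SE 1.75) and 1.21 for rag2 (SE 1.42), neither called.

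Thymic B cells of the rag2-cd79b line were also set against B Stage III, where no library had a rag1 count. The thymic B mean of 40.2 CPM over 3 libraries was 156-fold above the 3-count limit of B Stage III (edgeR adjusted p = 0.0239). That mean rests mostly on replicate 6 at 105.5 CPM, with replicate 5 at 15.2 CPM and replicate 4 also without a count. The rag2 gene was not called, at 30.3 against 7.10 CPM (log2 fold change 1.84, SE 1.07, edgeR adjusted p = 0.370), where 1.07% of all genes were called (0.305% higher and 0.77% lower). The rag1 call was lost without thymic B replicate 6 (edgeR adjusted p = 0.209), without any 1 of the B Stage III libraries 16, 17 or 18 (0.0994, 0.0662 and 0.0803), and in a fit of only these groups (0.616).

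Between the lines, thymic B cells of the lck lines held 75.5 CPM of rag1 against 37.3 CPM in the rag2 lines, with overlapping libraries (log2 fold change 1.12, SE 0.59, edgeR adjusted p = 0.460), and 52.1 against 26.4 CPM of rag2 (log2 fold change 0.20, SE 0.75, edgeR adjusted p = 1.0), where 0.52% of all genes were called (0.395% higher and 0.125% lower). Without replicate 6 of the rag2-cd79b line the rag1 value was 2.35 and was called (adjusted p = 0.0459). Replicates 19 and 20 of the lck-cd79b line held 123.9 and 121.4 CPM of rag1, and 337.9 and 245.5 CPM of the T lineage genes. The T lineage sums were 115.0 to 159.6 CPM in the lck-cd79a line and 41.05 to 176.0 CPM in the rag2 lines. Of the 12 T lineage genes, 2 were called higher in the lck lines and 0 lower. The part of T cells in the line difference was not tested. In the cd79b lines against the cd79a lines the log2 fold change was 0.55 for rag1 (SE 0.59, edgeR adjusted p = 1.0) and −1.82 for rag2 (SE 0.73, edgeR adjusted p = 0.204), where 0.79% of all genes were called (0.222% higher and 0.569% lower). Without replicate 4 of the rag2-cd79b line the rag2 value was −3.35 and was called (adjusted p = 0.0427).

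T Stage IV was compared with thymic B cells in the lck-cd79a line. The rag1 level was 766 ± 120 CPM in T Stage IV against 44.0 ± 14.3 CPM (SD, n = 3 each), without overlap (log2 fold change 3.84, SE 0.80, edgeR adjusted p = 0.00210; trended dispersion 0.447). The rag2 level was 91.6 ± 29.6 against 80.8 ± 68.2 CPM, with a log2 fold change of 0.00 (SE 0.75, edgeR adjusted p = 1.0) and a 95% interval of −1.47 to 1.48. In this comparison 2.12% of all genes were called (0.679% higher and 1.44% lower), and 1 of the 3 members. The genes dclre1c (204 ± 56.2 against 4.595 ± 4.456 CPM) and polm (118 ± 47.1 against 4.63 ± 6.65 CPM) were the 2 of 19 end joining genes that were higher in T Stage IV, with 0 lower.

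The early T-committed marrow cells held little rag1 and rag2. Against T Stage III of the lck-cd79a line, both genes were higher in T Stage III: rag1 was at 501 ± 206 against 16.1 ± 27.0 CPM (log2 fold change 4.99, SE 0.88, edgeR adjusted p = 0.000640) and rag2 at 81.2 ± 22.5 against 5.29 ± 9.16 CPM (log2 fold change 4.00, SE 0.99, edgeR adjusted p = 0.0125). The libraries did not overlap in either gene, and 1.04% of all genes were called (0.444% higher and 0.596% lower). The early T-committed values stem mostly from replicate 55, with 47.2 CPM of rag1 and 15.9 CPM of rag2. That replicate had 68.7 CPM of lck and 17.2 CPM of cd79a, while the other 2 of the line held 336 and 224 CPM of lck and at most 0.462 CPM of cd79a. Over the 9 B lineage genes, replicate 55 held 449.5 CPM and replicates 54 and 56 held 227.7 and 189.5 CPM. In the lck-cd79b line, which was not in this comparison, replicates 21 and 22 held 425.0 and 589.9 CPM of these genes without a rag1 or rag2 count. Replicate 23 of that line held 167.3 CPM of them and 40.87 CPM of rag1. The part of B cells in these values was not tested. Without replicate 55 the fitted log2 fold changes were 10.01 for rag1 and 13.06 for rag2, against groups near 0 or at 0. Without replicate 54 they were 4.38 (edgeR adjusted p = 0.00145) and 3.38 (0.122). The call of rag2 was also lost without replicate 56 (0.125) or T Stage III replicate 45 (0.0878), by DESeq2 (0.0564) and with trended dispersion (0.418), and that of rag1 with trended dispersion (0.391). The 4 red cell genes summed to 1235 to 16950 CPM in early T-committed libraries, against 60.6 to 91.4 CPM in T Stage III. The 4 myeloid genes summed to 277 to 1053 against 0 to 2.04 CPM, and the 7 kidney tubule genes to 204 to 430.5 against 0 to 2.14 CPM. The part of these cells in the result was not tested.

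Early T-committed cells were compared with early B-committed cells of the rag2 lines after subtracting the line difference in thymic B cells. The rag1 level was 14.9 ± 22.7 CPM (SD, n = 6) against 838 ± 607 CPM (SD, n = 3), with no overlap (log2 fold change −6.99, SE 0.90, edgeR adjusted p = 8.32e-07). For rag2 the level was 2.64 ± 6.48 against 229 ± 223 CPM, without overlap (fitted log2 fold change −10.01, SE 1.80, edgeR adjusted p = 5.19e-05). Its fitted size rests on the lck-cd79b line, where all 3 early T-committed libraries had no count. Those libraries, replicates 21, 22 and 23, had 4483, 4277 and 6339 genes detected, against 6534 to 8436 in early B-committed cells. Replicate 54 of the lck-cd79a line, with 7716 genes detected, also held no rag1 or rag2 count. The part of low detection was not tested. With 2.62% of all genes called (0.811% higher and 1.81% lower), 2 of 3 members were. The early B-committed cells were sorted with the rag2 reporter and the early T-committed cells with the lck reporter. The rag2 difference is therefore not independent of the sort, and subtracting the thymic B difference cannot remove this. Levels of rag1 and rag2 had a Pearson r of 0.85 over the 19 group means. Whether the rag1 difference depends on the sort too was not tested. The gene dntt had no count in early T-committed cells. Their 3-count limit was 29.1-fold below the early B-committed mean of 8.61 CPM (range 0.0839 to 19.7 CPM), with no test value. The fitted log2 fold change of rag1 was −9.50 without replicate 55, −12.08 without replicate 23, −6.21 without early B-committed replicate 36 and −8.22 without thymic B replicate 6, and that of rag2 was −14.54 without replicate 55, −9.06 without replicate 36, −11.04 without thymic B replicate 34, −9.14 without early B-committed replicate 7 and −11.54 without thymic B replicate 4. Of the 19 end joining genes, 3 were lower in early T-committed cells, h2ax, hmgb1b and hmgb2b, and 0 higher. Of the regulators, runx3 was higher, at 209 ± 73.9 against 9.18 ± 12.7 CPM, and pax5, tcf12 and myb were lower.

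The histone gene h2ax, which is modified around DNA breaks, and hmgb2b followed other populations than dclre1c and polm. The h2ax level was 1576 to 1987 CPM on average in T Stage I, T Stage II, T Stage IV, early B-committed and B Stage I cells, 1138 CPM in T Stage III, and 277 and 146 CPM in B Stage II and B Stage III. Early T-committed libraries averaged 136 CPM. The 11 thymic B libraries averaged 446 CPM and ran from 2.07 to 1559 CPM. Those of the rag2 lines, the only ones in the comparisons below, reached at most 445.6 CPM. The highest thymic B library, of an lck line, was above the lowest T Stage II library at 1361 CPM. Between B Stage I and B Stage II, where 0.964% of all genes were lower, 1 of 19 end joining genes was, hmgb2b (log2 fold change −2.61, SE 0.44, edgeR adjusted p = 6.25e-05). In thymic B cells against T Stage II, 6 of 19 were lower and 0 higher, where 6.32% of all genes were lower (median log2 fold change −4.03 against −0.99 over all genes). Against B Stage I 3 of 19 were lower, xrcc4, h2ax and hmgb2b, where 4.6% of all genes were (median −3.38 against −1.28). In both comparisons 12 of the 15 cell division genes were also lower in thymic B cells and 0 higher. Their median log2 fold change was −3.75 against T Stage II and −4.17 against B Stage I. The part of cell division in these results was not tested.

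Over the 19 group means, as log2(CPM + 1), the genes with the pattern most like rag1 were tuba1b, a tubulin, HELLS, a chromatin remodeller, tp53inp2, SOX11 and gse1a, with Pearson r of 0.91 to 0.87, and rag2 followed at rank 10 with r = 0.85. For rag2 they were h2ax (r = 0.93), CENPF, NEIL3, dlgap5 and cks2, and rag1 was at rank 51. For dntt they included TMC2, ADAMTS15, abcc6a and ATAD2B, with r of 0.91 to 0.86, and rag1 was at rank 154 with r = 0.66. These are descriptions over groups that share lines and tissues. Over the 53 libraries in place of the group means, 3 of the 5 genes remained among the 5 nearest rag1, 2 of the 5 among those nearest rag2 and 1 of the 5, TMC2, among those nearest dntt. There NEIL3, dlgap5 and cks2 were at ranks 70, 43 and 12 for rag2, and ADAMTS15, abcc6a and ATAD2B at ranks 44, 60 and 265 for dntt, with r of 0.46, 0.44 and 0.35.

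Reads of overlapping genes may be counted for either gene or for neither, since the use of strand in the counting is not given in the sources used here. In the GRCz12tu annotation of RefSeq, rag1 and rag2 are neighbours on chromosome 25, rag2 overlaps iftap and dntt overlaps blnk, a B cell signalling adaptor, on chromosome 13. The level of iftap was at most 31.6 CPM, in T Stage II, and at most 2.48 CPM in B Stage I, where rag2 averaged 161 CPM. The level of blnk reached 1328 CPM in thymic B cells and was at least 247 CPM in B Stage I, where no library had a dntt count. Whether reads of dntt went uncounted through this overlap was not tested.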

How the data were processed

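RNA of sorted zebrafish lymphocytes (53 libraries, 19 groups) was read with a QuantSeq 3' forward kit, per the labels' protocols. The submitters' processing notes name FastQC 0.11.8, STAR, featureCounts, DESeq2 1.38.3 and the GRCz11 build. The raw counts per gene are used as the authors deposited them (14423 genes, the row of the gfp reporter entering library totals only). The authors' second table, of signal, holds counts divided by size factors and was used only to check the first. Each library was mapped to a group by its own labels.

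CPM were computed from total counts. Tests used edgeR 4.0.16 in R 4.3.3: TMM scaling, 1 quasi-likelihood model with 19 group means, robust fitting, and Benjamini-Hochberg adjustment over all 14423 genes at 0.05. In the 2 comparisons across reporter pairs (T Stage III with T Stage II, and the early committed marrow cells), the line difference of thymic B cells was subtracted. The SE of a log2 fold change was back-calculated as its absolute value over the square root of the F statistic of the test. The intervals printed with it use the normal approximation. Ratios used an added 0.5 and an exact two-sided permutation test within lines. Alternatives were DESeq2 1.42.0, its size factors, a filter of 10 counts in 6 libraries, fits of only the compared groups, leaving out each library, and the trended dispersion, chosen after seeing the data. The scripts were tested on simulated data. A group with at most 3 counts in every library was set at 3 counts for a bound, which is the mean of the other group over that limit. From each gene list and comparison, the up to 4 called genes with the largest change could be named, and hmgb2b and h2ax are also described outside that rule. Likeness was ranked among genes with at least 10 CPM in a group mean. One gene of that ranking is not reported here. The members and lists were chosen with earlier results of these data known. Python 3.11.15, pandas 2.3.3, numpy 2.4.6, scipy 1.17.1 and matplotlib 3.10.9 were used.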

Additional observations from a re-analysis of the deposited data

Results flagged for a closer look

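In 12 combinations of gene and group of 4 to 10 libraries, the highest or lowest library was compared with its neighbour at the 95% Dixon limit. That limit is passed by chance in about 1 of 20 groups of normal values, a rate that does not hold for levels with many libraries at 0. A library above 0 always passes where all others are at 0. In T Stage I, replicate 28 (population T2) stood apart with 1906 CPM of rag1, and also with 21.62 CPM of dntt. Replicate 3 of T Stage II in the rag2-cd79b line stood apart with 10.47 CPM of dntt. Replicate 55 of the early T-committed cells in the lck-cd79a line stood apart with 15.87 CPM of rag2, the other 5 libraries being at 0. Replicate 44 of B Stage II in the rag2-cd79a line stood apart with 33.58 CPM of rag2.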

How the results depend on the processing

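No paired analysis was possible, because the sample numbers run on across groups and the labels do not say whether groups of a line share animals. The fits treat all libraries as independent. The side of the threshold was compared for 46 results on rag1, rag2 and dntt, most of them not called in the main fit. It was kept by 46 with median-ratio size factors, 46 with the filter, 44 with only the compared groups, 40 with DESeq2 and 37 with trended dispersion. No called result changed direction, and direction was not compared where neither fit made a call. Trended dispersion lost 9 calls, most of those in the main fit. The causes were not tested. With trended dispersion, calls lost for rag1 were B Stage I against early B-committed (−4.43), B Stage II against B Stage I (−3.42), thymic B against B Stage II (3.36), T Stage IV against thymic B (3.85) and T Stage III against early T-committed (4.97). Those lost for rag2 were B Stage II against B Stage I (−3.83), thymic B against B Stage I (−2.64), thymic B against T Stage II (−2.93) and T Stage III against early T-committed (3.98). DESeq2 lost rag2 in thymic B against B Stage I (−2.40) and T Stage III against early T-committed (3.93). It added dntt in B Stage I against early B-committed (−23.72), thymic B against T Stage II (−20.36) and T Stage II against B Stage I (21.34), and rag1 in B Stage III against B Stage II (−22.52), all fitted values against groups at 0 and no bounds. With only the compared groups, rag1 lost its call in thymic B against B Stage II (3.42) and B Stage III (11.59).

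Leaving out 1 library left 454 results on the same side of the threshold, with 16 calls lost and 2 gained. For rag1 the log2 ranges were −3.71 to −3.29 for B Stage II against B Stage I, 2.15 to 3.67 and 9.37 to 12.44 for thymic B against B Stage II and B Stage III, and 0.83 to 2.35 between the lck and rag2 lines. For rag2 they were 3.38 to 13.06 for T Stage III against early T-committed and −3.35 to −0.80 between the cd79b and cd79a lines. The dntt over rag2 ratio ranged from 2.69 to 4.78 and lost its call (adjusted exact permutation p = 0.0525) without rag2-cd79b B Stage I replicate 10, 11 or 12.

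Over all genes, the counts called by edgeR and by DESeq2 were 0 and 880 between the first T stages, 2 and 2075 for T Stage III with T Stage II, 11 and 1317 for T Stage IV with T Stage III, 152 and 3254 for B Stage I against early B-committed, 161 and 1282 for B Stage II against B Stage I, and 4 and 1476 for B Stage III against B Stage II. In thymic B cells they were 870 and 4424 against B Stage I, 191 and 3591 against B Stage II, 155 and 3476 against B Stage III, 1439 and 4616 against T Stage II, 306 and 1757 for T Stage IV, 75 and 3214 for lck lines and 114 and 3409 for cd79b lines. They were 842 and 2044 for T Stage II against B Stage I, 150 and 1907 for T Stage III against early T-committed, and 378 and 3753 for early T-committed against early B-committed. Only the compared groups gave 35, 27, 31, 409, 525 and 8 in the first 6, and 80, 18, 482, 44, 53, 1508 and 110 for thymic B against B Stage II and III, T Stage IV, lck lines, cd79b lines, T Stage II against B Stage I, and the early cells. Trended dispersion gave 5 for T Stage III with T Stage II, 18, 33 and 1 for the steps between marrow B stages in turn, and 398, 121, 119 and 26 for thymic B against B Stage II, T Stage IV, lck lines and T Stage III against early T-committed. At its furthest, leaving out 1 library moved the counts called in thymic B cells from 191 to 94 against B Stage II (without replicate 33), 155 to 37 against B Stage III (replicate 4), 75 to 15 or 128 for lck lines and 114 to 34 or 226 for cd79b lines (replicates 19 or 6), and 306 to 197 for T Stage IV (T Stage IV replicate 50). It moved 152 to 74 for B Stage I against early B-committed and 378 to 680 for the early cells (early B-committed replicate 36 in both), 161 to 106 for B Stage II against B Stage I (B Stage II replicate 14), 150 to 62 for T Stage III against early T-committed (T Stage III replicate 46), 11 to 3 for T Stage IV with T Stage III (T Stage IV replicate 48), 4 to 0 for B Stage III with B Stage II (replicates 13, 14 or 18), 2 to 1 or 6 for T Stage III with T Stage II (thymic B replicates 51 or 52) and 0 to 3 between the first T stages (T Stage II replicate 26). The shares of all genes called move with these counts. Differences between lines had 0 to 11 calls by edgeR and 798 to 2657 by DESeq2. Groups of 1 to 3 libraries and the 3-count floor limit what can be said of dntt.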
